A study of Homo sapiens with 6 samples.

Results

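The genes of cholesterol synthesis, sterol sensing and uptake, and lipogenesis were examined in J82 cells, a human bladder cancer line in long use, after CRISPR/Cas9 targeting of FOXC1, which encodes a forkhead transcription factor. A list of 41 symbols was looked up in the 57820 rows of a table of read counts per gene. Of these, 40 had a row and 39 were among the 15647 genes with enough counts to be tested. STARD4, a sterol transfer protein, was left untested because it held 0 to 2 counts per library, and ACACA, which encodes an acetyl-CoA carboxylase, was not analysed here because the annotation tables used did not pair its symbol with a row.

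The 6 RNA-seq libraries came from J82 cells grown in DMEM with 10% FBS, 3 with the genotype control and 3 with the genotype FOXC1 KO. They held 18408134 to 25350908 counts each. The KO cells had received lentiCRISPR v2, a lentiviral vector for Cas9 and a guide RNA, and were selected with puromycin, and the control is described in the study's methods as a vector control. The knockout was checked by Western blotting per the labels, and the methods speak of knockout clones. How many clones a library holds and whether replicates were separate cultures are not given, so p-values measure only the spread between these libraries, which may be technical. The FOXC1 transcript (ENSG00000054598.5, chr6:1610150-1614132, plus strand) was at 18.2 ± 1.21 CPM in control (read counts scaled to library size, SD, n = 3) and 22.5 ± 1.495 CPM in the KO libraries, a log2 fold change of 0.30 (edgeR adjusted p 0.0127, SE 0.091). The transcript was thus no lower under the FOXC1 KO label than in control and does not check that label, so KO stands below for the name of the group.

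The 12 urothelial markers looked up included 5 (UPK1A, UPK1B, UPK3A, KRT5 and KRT20) with at most 3 counts in each library, and the summed level of all 12 was 2933 to 3733 CPM in control and 2321 to 2597 CPM in KO libraries. Mesenchymal markers summed to 1750 to 1891 CPM in control and 1780 to 2046 CPM in KO. Of these, ZEB1 (log2 fold change 0.57) and VIM (0.30) were higher in KO at an edgeR adjusted p under 0.05, and CDH2, FN1 and ZEB2 did not pass. The urothelial sum was almost all KRT7, KRT8 and KRT18. At an edgeR adjusted p under 0.05, KRT8 (log2 fold change -0.60) and KRT18 (-0.51) were lower in KO, and KRT7 (-0.07) was not. GATA3 (-0.42) and EPCAM (-0.86), at 35.3 and 2.085 CPM in control, were lower too. UPK2 and TP63 held at most 5 and 9 counts, so the defining uroplakins were at or near zero. The 4 hepatocyte markers were at 3 counts or fewer in every library. Immune markers summed to 3.32 to 4.19 CPM in control and 5.23 to 6.16 CPM in KO, and CD3E stayed at 3 counts or fewer. Endothelial markers went from 0.134 to 0.275 CPM in control to 0.991 to 1.304 CPM in KO, where CDH5 made up most of the sum. The part of these shifts in the results was not tested, and in bulk RNA fewer cells expressing a gene and less RNA per cell cannot be told apart.

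Cholesterol is built from acetyl-CoA through mevalonate, the isoprenoid precursors, squalene and lanosterol. Its genes are switched on together by SREBP2, the product of SREBF2, while SREBP1 (SREBF1) acts more on fatty acid synthesis. The SREBPs are held in the endoplasmic reticulum by SCAP and the INSIG proteins when sterols are plentiful, and are carried to the Golgi and cleaved when sterols are low. Oxysterols act in the opposite direction through the liver X receptors (LXR), which raise genes for cholesterol export and for turnover of lipoprotein receptors. At sterol promoters SREBPs usually work with the factors NF-Y, which binds CCAAT boxes, and Sp1, which binds GC boxes.

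The promoters of the members were therefore read first, as windows from 250 bases before to 50 bases after the RefSeq start. A window was found for 36 of the 41 members, with none for ACAT2, FDFT1, SQLE, FASN and LPL. Each member was read in a single window, the first listed, while the comparison below covers all distinct windows, so the sets are unlike. The RefSeq start can also lie away from the annotated start of the gene, as for IDI1 and LPIN1. The NF-Y box (CCAAT, either strand) was present in 22 of the 36 (61.1%) against 34.6% of 34796 distinct human promoters, and the GC box (GGGCGG, either strand) in 33 (91.7%) against 44.9%. The letters TCACNCCAC, a sterol regulatory element, were found on either strand in 1 member (2.78%), SREBF2 itself, against 1.12% of promoters. An E-box (CACGTG, which reads the same on both strands) was in 5 members (13.9%, against 7.20%), and a forkhead motif (GTAAACA, either strand) in ELOVL6 alone (2.78%, against 3.42%). These matches describe letters in a window and not binding.

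MSMO1 and NSDHL act in the same complex that removes methyl groups from sterols, and their windows are shown because they hold 4 and 5 NF-Y boxes, yet MSMO1 was called lower in KO and NSDHL was not. MVK, whose window is not shown, holds as many boxes as NSDHL and was not called. The HMGCS1 window is shown as that of a mevalonate gene that was not called, and those of NPC2 and MYLIP as those of sterol handling genes that were called lower. All sequences are from RefSeq on GRCh37, 5′ to 3′ on the gene's strand, with box letters in capitals (ATTGG is CCAAT read on the other strand).
MSMO1, chr4:166248621-166248806, plus strand, from -200 to -15 relative to the start: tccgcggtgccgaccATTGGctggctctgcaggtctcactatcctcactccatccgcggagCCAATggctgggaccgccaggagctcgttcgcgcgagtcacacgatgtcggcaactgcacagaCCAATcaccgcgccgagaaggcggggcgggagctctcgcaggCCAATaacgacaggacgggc
NSDHL, chrX:151999364-151999542, plus strand, from -243 to -65: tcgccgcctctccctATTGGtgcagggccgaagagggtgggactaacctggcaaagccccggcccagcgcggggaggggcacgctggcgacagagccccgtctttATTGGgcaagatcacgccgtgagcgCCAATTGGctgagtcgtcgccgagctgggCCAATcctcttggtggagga
HMGCS1, chr5:43313595-43313684, minus strand, from -170 to -81: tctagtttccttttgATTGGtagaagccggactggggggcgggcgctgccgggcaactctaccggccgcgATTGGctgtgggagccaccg
NPC2, chr14:74960310-74960374, minus strand, from -159 to -95: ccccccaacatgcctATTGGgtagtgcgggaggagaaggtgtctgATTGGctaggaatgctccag
MYLIP, chr6:16129193-16129268, plus strand, from -124 to -49: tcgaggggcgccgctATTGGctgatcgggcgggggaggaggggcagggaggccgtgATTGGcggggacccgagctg
In NSDHL, a pair of boxes on opposite strands share letters in the run CCAATTGG.

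The remaining windows shown carry the only match to the sterol element letters and the only match to the forkhead letters among the windows found, again in capitals. Elements spelled otherwise or lying outside these windows were not searched for, so other members may hold them.
SREBF2, chr22:42228961-42228999, plus strand, from -148 to -110, sterol regulatory element: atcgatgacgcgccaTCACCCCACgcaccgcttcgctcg
ELOVL6, chr4:111119893-111119929, minus strand, from -158 to -122, forkhead motif: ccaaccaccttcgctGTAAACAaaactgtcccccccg
Among tested members with a window, the NF-Y box was in 3 of 4 called lower, 1 of 3 called higher and 17 of 27 not called, which are too few promoters to compare.

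Calls required 2 criteria, a Benjamini-Hochberg adjusted p under 0.05 over all tested genes in the quasi-likelihood test of edgeR and a change of more than 1.3-fold, which is 0.38 on the log2 scale. By this rule 6 of the 39 tested members fell in KO (SQLE, MSMO1, MYLIP, NPC1, NPC2 and LPL), where 8.39% of all tested genes were called lower, and 3 rose (VLDLR, LRP8 and APOE), where 7.57% of all genes were called higher. By adjusted p alone, 15 members were lower, beside 14.3% of all tested genes, and 5 were higher, beside 15.2%. The log2 fold change was below zero for 29 members and above zero for 10, with a median of -0.13 beside -0.00084 over all tested genes. Control and KO values were fully separated for 21 of the 39 members, beside 41.3% of all tested genes.

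**Figure D1:**
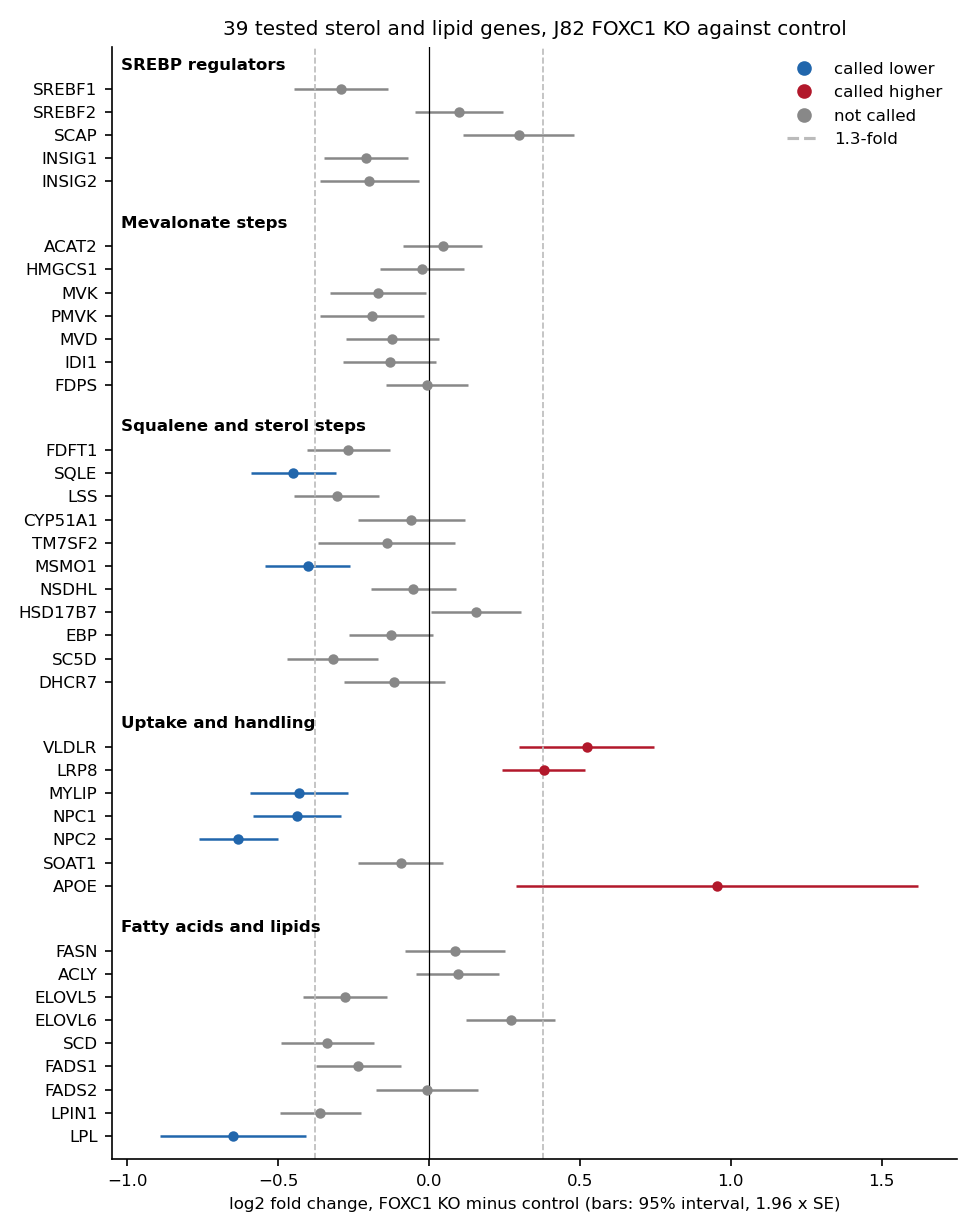
Log2 fold change of each of the 39 tested members, FOXC1 KO minus control, grouped by role, with 95% intervals from the SE as bars and dashed lines at 1.3-fold. The 7 mevalonate genes sit between -0.19 and 0.05, the squalene and sterol genes lie mostly left of zero, and 6 of the 7 tested uptake and handling genes are called, 3 on each side.

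The regulators of the pathway were considered first, and none of the 5 was called by edgeR or by DESeq2. At an unadjusted p under 0.05 in edgeR, 3 were lower, beside 19.4% of all tested genes, and 1 was higher, beside 20.4%. Their median log2 fold change was -0.20, and 2 were lower and 1 higher by adjusted p alone, beside 14.3% and 15.2% of all tested genes.

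SREBF1 (ENSG00000072310.12, chr17:17713713-17740316, minus strand) encodes the SREBP that favours fatty acid genes. It was at 130.3, 107 and 108 CPM in control replicates 1 to 3 and at 94.8, 100.3 and 87.0 CPM in KO replicates 1 to 3. All KO values lay below all control values, although control replicate 1 stood well above the other two. The log2 fold change was -0.29 (adjusted p 0.0063, SE 0.080), under the 1.3-fold threshold. Its exons share 6.75% of their bases with RAI1 on the opposite strand.

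SREBF2 (ENSG00000198911.7, chr22:42229109-42303310, plus strand) encodes the SREBP of cholesterol synthesis. Its control libraries held 204, 169 and 177 CPM and its KO libraries 196, 206 and 188 CPM. The groups overlapped, since control replicate 1 was above KO replicates 1 and 3, and the log2 fold change was 0.10 (95% interval -0.05 to 0.25, adjusted p 0.334).

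SCAP (ENSG00000114650.14, chr3:47455171-47518616, minus strand), the escort of the SREBPs, was at 40.3, 30.7 and 32.4 CPM in control and 42.2, 46.0 and 38.7 CPM in KO. Control replicate 1 lay within the KO range, and the log2 fold change was 0.30 (adjusted p 0.0162, SE 0.093). Without control replicate 1 it was 0.41 and past the fold threshold, but the adjusted p was 0.108 without KO replicate 2, 0.106 without control replicate 2 and 0.0706 without control replicate 3.

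INSIG1 (ENSG00000186480.8, chr7:155089486-155101945, plus strand), which holds SCAP in the endoplasmic reticulum and is itself an SREBP target, was at 937, 953 and 991 CPM in control and 872, 784 and 838 CPM in KO. The groups did not overlap, and the log2 fold change was -0.21 (adjusted p 0.0247, SE 0.070). The adjusted p was 0.106 without KO replicate 2, 0.0567 without control replicate 2 and 0.139 without control replicate 3. INSIG2 (ENSG00000125629.10, chr2:118846028-118868573, plus strand), its relative with the same role, was at 39.04, 43.1 and 42.2 CPM in control and 34.4, 33.9 and 40.1 CPM in KO, with KO replicate 3 inside the control range. Its log2 fold change was -0.20 (adjusted p 0.0763, SE 0.084).

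The mevalonate steps, from acetyl-CoA to farnesyl diphosphate, held no gene called by edgeR or DESeq2. None of the 7 had an adjusted p under 0.05, 2 were lower at an unadjusted p under 0.05 in edgeR (19.4% of all tested genes were), and the log2 fold changes ran from -0.19 to 0.05 with a median of -0.12. The median was closer to zero without control replicate 1 (-0.07), control replicate 2 (-0.06) or KO replicate 1 (-0.08). ACAT2, the cytosolic thiolase that joins acetyl-CoA units, was at 372 ± 4.47 CPM in control and 384 ± 14.8 CPM in KO (SD, n = 3), a log2 fold change of 0.05 (95% interval -0.09 to 0.18). HMGCS1, the synthase that makes HMG-CoA, was at 302 ± 15.9 and 297 ± 20.02 CPM, and its log2 fold change was -0.02 (95% interval -0.16 to 0.12). FDPS, which makes farnesyl diphosphate, stood at 376 ± 16.6 and 375 ± 17.2 CPM, and its log2 fold change was -0.01 (95% interval -0.14 to 0.13). The intervals of these 3 genes exclude a change of 1.3-fold in either direction.

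The other mevalonate genes had negative log2 fold changes that did not pass the test. These were -0.17 for the mevalonate kinase MVK (adjusted p 0.122), -0.19 for PMVK, which adds the next phosphate (adjusted p 0.111), -0.12 for the decarboxylase MVD (adjusted p 0.261) and -0.13 for IDI1, the isomerase of isopentenyl diphosphate (adjusted p 0.226). The spread between control libraries was wide for IDI1, at 397 ± 43.95 CPM against 363 ± 29.0 CPM in KO. Exons of ACAT2 share 17.2% of their bases with TCP1 on the opposite strand, and those of FDPS share 18.6% with RUSC1-AS1, so their counts are uncertain because the strand setting of the counting is not stated.

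From squalene onward the pathway makes sterols only, and here 2 of 11 genes fell and none rose, beside 8.39% and 7.57% of all tested genes. Their median log2 fold change was -0.14. The median was -0.07 without control replicate 1 and -0.25 without control replicate 2, and -0.22 without KO replicate 2. By adjusted p alone 5 of the 11 were lower (FDFT1, SQLE, LSS, MSMO1 and SC5D) and none was higher, beside 14.3% and 15.2% of all tested genes. The counts were the same at an unadjusted p under 0.05 (19.4% and 20.4% of all tested genes). DESeq2 also called 2 lower and none higher. Of the 11 genes 10 had a log2 fold change below zero, HSD17B7 being the exception.

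SQLE (ENSG00000104549.7, chr8:126010739-126034525, plus strand) encodes squalene epoxidase, which adds the first oxygen and is a rate-limiting step of the sterol branch. Its control libraries held 534, 516 and 557 CPM and its KO libraries 424, 362 and 391 CPM. The highest KO value was well below the lowest control value. SQLE fell by 0.45 on the log2 scale (adjusted p 1.55e-05, SE 0.072), which is 1.37-fold.

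MSMO1 (ENSG00000052802.8, chr4:166248819-166264316, plus strand), the sterol C4-methyl oxidase whose promoter is shown above, was at 549, 579.7 and 575 CPM in control and at 433, 395 and 461 CPM in KO. The groups did not overlap. MSMO1 fell by 0.40 on the log2 scale (adjusted p 6.96e-05, SE 0.071), 1.32-fold, but without KO replicate 2, its lowest library, the log2 fold change was -0.34 and under the threshold. NSDHL, its partner with a promoter of 5 boxes, was at 149.8 ± 11.2 and 144 ± 5.49 CPM (SD, n = 3), and its log2 fold change was -0.05 (95% interval -0.19 to 0.09). HSD17B7, the third enzyme of the demethylation, was at 0.15 (adjusted p 0.129), and its reads may be shared with a near-identical pseudogene.

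Of the enzymes around squalene, FDFT1, the squalene synthase, was at 689 ± 37.4 CPM in control and 573 ± 18.9 CPM in KO (log2 fold change -0.27, adjusted p 0.0042). LSS, which closes the rings to give lanosterol, was at 271 ± 23.5 and 219 ± 7.59 CPM (log2 fold change -0.31, adjusted p 0.00164). SC5D, a late desaturase, was at 76.3 ± 2.34 and 61.1 ± 5.13 CPM (log2 fold change -0.32, adjusted p 0.00191). These 3 genes were lower in KO without overlap between the groups but under the 1.3-fold threshold, and SC5D passed it without KO replicate 3, at -0.40.

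The last members of the branch did not pass by adjusted p. Their log2 fold changes were -0.06 for CYP51A1, the lanosterol demethylase, -0.14 for TM7SF2, a sterol reductase, -0.12 for EBP, the sterol isomerase, and -0.11 for DHCR7, the final reductase. TM7SF2 and DHCR7 turned to 0.02 and 0.02 without control replicate 1, the library that held the highest control value in 22 of the 39 members (56.4%, beside 40.7% of all tested genes). The CYP51A1 count remains uncertain. In an annotation newer than that used for counting, 68.2% of its exon bases lie in another gene on the same strand. That gene has no row in the counts, so an effect on the CYP51A1 count was not tested. Likewise, 36.4% of the exon bases of EBP lie in a same-strand gene without a row, so the EBP count is uncertain too.

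Uptake, intracellular transport and storage of cholesterol held most of the called members. Of 7 tested genes, 3 fell and 3 rose, beside 8.39% and 7.57% of all tested genes, and SOAT1 was not called. With calls on both sides the median log2 fold change, -0.09, depended on which genes were in the fit. It was 0.15 in DESeq2 and 0.14 with no filter on low counts, where STARD4 was included. With a mean of at least 50 counts, which leaves out APOE, it was -0.28. With 1 library left out it stayed below zero, from -0.14 to -0.04.

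Of the lipoprotein receptors, VLDLR (ENSG00000147852.11, chr9:2621182-2660056, plus strand), which takes up triglyceride-rich particles and binds apolipoprotein E, was at 9.67, 7.41 and 7.78 CPM in control and at 11.95, 12.6 and 11.0 CPM in KO. All KO values were above all control values, control replicate 1 being the closest. VLDLR rose by 0.52 on the log2 scale (adjusted p 0.000782, SE 0.11), 1.44-fold.

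LRP8 (ENSG00000157193.10, chr1:53708036-53794141, minus strand) encodes ApoER2, the closest relative of the VLDL receptor. Its control libraries held 87.2, 87.0 and 94.6 CPM and its KO libraries 119, 118 and 113 CPM, without overlap. LRP8 rose by 0.38 on the log2 scale (adjusted p 0.00013, SE 0.071), a value so close to the 1.3-fold threshold that it was called in 5 of 12 other settings, although its adjusted p was under 0.05 in all 12. Its exons share 11.1% of their bases with a long noncoding RNA on the same strand, which had a mean of 390.3 counts per library.

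MYLIP (ENSG00000007944.10, chr6:16129317-16148479, plus strand) encodes IDOL, a ubiquitin ligase that marks lipoprotein receptors, VLDLR and LRP8 products among them, for degradation. It was at 32.6, 32.9 and 35.8 CPM in control and at 25.4, 25.02 and 24.8 CPM in KO. The KO libraries lay within 1 CPM of each other and below all control libraries. MYLIP fell by 0.43 on the log2 scale (adjusted p 0.000181, SE 0.082), 1.35-fold.

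NPC1 and NPC2 together move cholesterol out of lysosomes, NPC2 as the soluble carrier and NPC1 as the membrane protein. NPC2 (ENSG00000119655.4, chr14:74942895-74960880, minus strand) was at 322, 329 and 330.4 CPM in control and at 208, 216 and 209.8 CPM in KO. The spread within groups was small (SD 4.23 and 4.32 CPM), and NPC2 fell by 0.63 on the log2 scale (adjusted p 1.42e-08, SE 0.066), 1.55-fold, the smallest adjusted p among the members. NPC1 (ENSG00000141458.8, chr18:21086148-21166470, minus strand) was at 194, 180.3 and 191 CPM in control and at 152, 142 and 123 CPM in KO, also without overlap. It fell by 0.44 on the log2 scale (adjusted p 4.48e-05, SE 0.075), but without KO replicate 3 the log2 fold change was -0.36 and under the threshold.

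SOAT1, which esterifies cholesterol for storage, was at 200.4 ± 11.8 CPM in control and 188 ± 12.7 CPM in KO (SD, n = 3), a log2 fold change of -0.09 (95% interval -0.23 to 0.05). APOE (ENSG00000130203.5, chr19:45409048-45412650, plus strand), the apolipoprotein bound by these receptors, was at 0.312, 0.491 and 0.314 CPM in control and 0.652, 0.753 and 0.765 CPM in KO. These were 7 to 19 counts per library, so the depth allows only a loose estimate. Its log2 fold change was 0.95 (edgeR adjusted p 0.0338, SE 0.34), but the adjusted p was 0.207 in DESeq2, and the call held in 5 of 11 other settings that gave APOE a value.

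**Figure D2:**
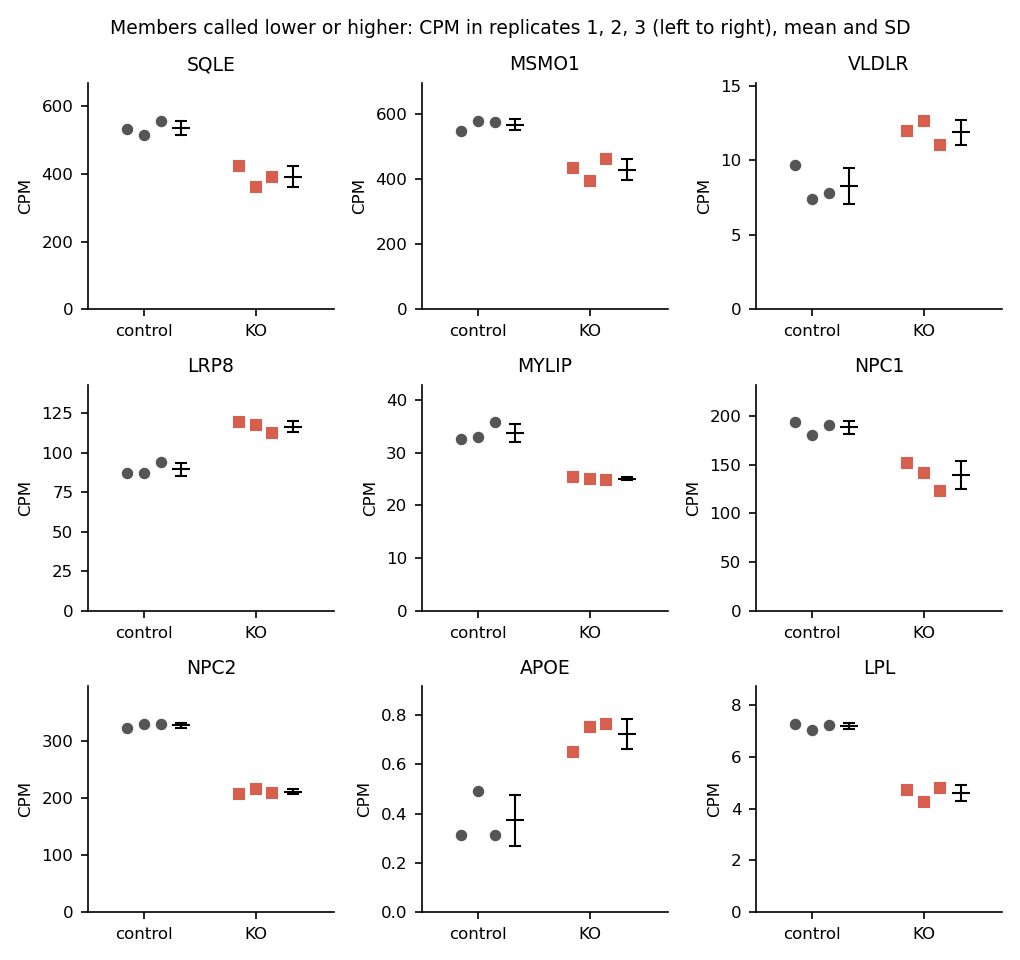
CPM of the 9 called members in each control (circles) and FOXC1 KO (squares) library, with the mean and SD of 3 libraries beside them, on axes that start at 0. The groups do not overlap in any panel, NPC2 and MYLIP show the tightest KO values, and APOE lies under 1 CPM throughout.

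Fatty acid synthesis and lipid storage showed 1 called gene of 9 tested, LPL, which was lower (8.39% of all tested genes were called lower). The median log2 fold change was -0.23. By adjusted p alone 5 were lower (ELOVL5, SCD, FADS1, LPIN1 and LPL), beside 14.3% of all tested genes, and 1 was higher (ELOVL6), beside 15.2%.

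FASN, the fatty acid synthase, and ACLY, which supplies its acetyl-CoA from citrate, did not pass the test. FASN was at 477 ± 69.9 CPM in control and 507 ± 41.9 CPM in KO (SD, n = 3), a log2 fold change of 0.09 (95% interval -0.08 to 0.25). ACLY was at 693 ± 40.7 and 740.4 ± 16.5 CPM, a log2 fold change of 0.10 (95% interval -0.04 to 0.23).

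Of the enzymes that modify fatty acids, SCD, the stearoyl-CoA desaturase, was at 2988 ± 296 CPM in control and 2366 ± 120.2 CPM in KO (log2 fold change -0.34, adjusted p 0.00157). The desaturase FADS1 was at 792 ± 45.7 and 674 ± 33.2 CPM (log2 fold change -0.23, adjusted p 0.0132). FADS2, the neighbouring desaturase gene that shares 490 exon bases with FADS1 on the other strand, was at 94.6 ± 14.997 and 94.2 ± 4.56 CPM (log2 fold change -0.01, 95% interval -0.17 to 0.16). The 2 elongases moved in opposite directions by adjusted p, under the 1.3-fold threshold in both cases. ELOVL5, which extends polyunsaturated chains, was at 504 ± 9.61 and 416 ± 31.3 CPM (log2 fold change -0.28, adjusted p 0.00337), and ELOVL6, which extends saturated chains and carries the forkhead motif shown above, at 77.7 ± 4.997 and 93.8 ± 6.44 CPM (log2 fold change 0.27, adjusted p 0.00684). Without KO replicate 3 the adjusted p was 0.0695 for ELOVL6 and 0.0561 for FADS1.

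LPIN1, a phosphatidate phosphatase of glycerolipid synthesis, was at 217 ± 9.46 CPM in control and 169 ± 5.89 CPM in KO, a log2 fold change of -0.36 (adjusted p 0.000162) that lay just under the threshold. It passed the threshold without KO replicate 1 and without control replicate 1, and SCD passed it without KO replicate 1 and without control replicate 2. LPL (ENSG00000175445.10, chr8:19759228-19824770, plus strand) encodes lipoprotein lipase, which frees fatty acids from lipoprotein triglyceride. Its control libraries held 7.26, 7.04 and 7.23 CPM and its KO libraries 4.73, 4.24 and 4.8005 CPM, from 87 to 184 counts. The groups did not overlap, and LPL fell by 0.65 on the log2 scale (adjusted p 0.000169, SE 0.12), 1.57-fold, the lowest log2 fold change of all 39 members. The 5 adipocyte markers summed to 2.59 to 3.73 CPM in control and 0.872 to 1.195 CPM in KO. Nearly all of this was FABP4, which was lower in KO. PLIN1, at 1 to 6 counts per library, was not lower (mean 0.123 CPM in control and 0.137 CPM in KO). ADIPOQ, CIDEC and LEP were at 3 counts or fewer. The part of the FABP4 difference in these results was not tested.

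The stability of these differences was examined with 12 other settings per gene, 6 of which left out 1 library each. Of the 9 called members, 5 (SQLE, VLDLR, MYLIP, NPC2 and LPL) were called in all of them, and 4 (MSMO1, NPC1, LRP8 and APOE) lost the call in at least 1. Of the 30 that were not called, 4 (SCAP, SC5D, SCD and LPIN1) were called in at least 1 setting. SQLE ranged from -0.51 to -0.39 and NPC2 from -0.65 to -0.62 on the log2 scale.

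**Figure D3:**
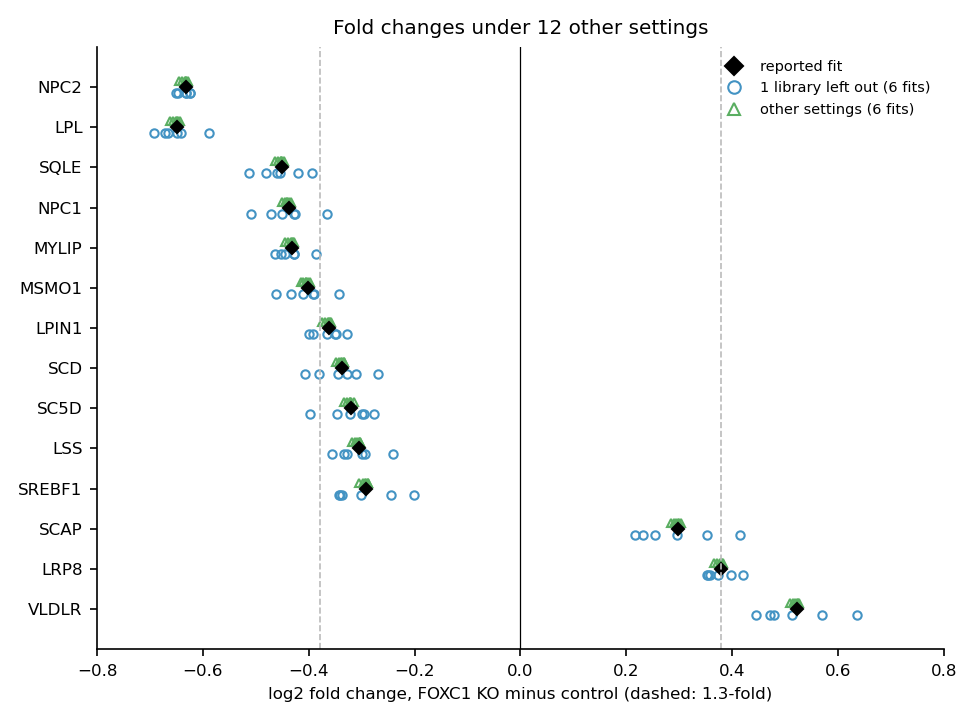
Log2 fold change of 14 members, FOXC1 KO minus control, in the reported fit (diamonds), with 1 library left out (circles) and under the other 6 settings (triangles), with dashed lines at 1.3-fold. Leaving out a library spread the values more than the other 6 settings did, and the circles of NPC1, MSMO1, LPIN1, SCD, SC5D, SCAP and LRP8 lie on both sides of a dashed line.

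To compare levels between genes, counts were divided by exon length and scaled to equal library totals, which gives TPM-like values, written TPM below. The length covered all merged exons in an annotation newer than that used for counting. A level can thus be too low where that annotation adds exons, and the order was not tested with other lengths. In control libraries SCD had the highest level, 2202 ± 182 TPM (SD, n = 3), followed by INSIG1 at 1019 ± 52.0 TPM, MSMO1 at 771 ± 39.4 TPM and EBP at 639.9 ± 34.0 TPM, and the control values of these 4 genes did not overlap. Next came a run of ACAT2, FDFT1, ACLY, ELOVL5, NPC2 and SQLE, from 546 down to 482 TPM, in which each overlapped its neighbour. The 2 SREBP genes were much lower, with SREBF2 at 88.1 ± 7.08 TPM and SREBF1 at 54.0 ± 4.92 TPM. At the foot of the order stood LPL at 6.72 ± 0.162 TPM, VLDLR at 1.94 ± 0.241 TPM and APOE at 0.670 ± 0.189 TPM. Over the whole order, the control values of 21 of 38 neighbouring pairs overlapped and those of 17 did not. In KO libraries SCD was still the highest, at 1769.8 TPM, and the means of SQLE and NPC2 went to 358 and 321 TPM.

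**Figure D4:**
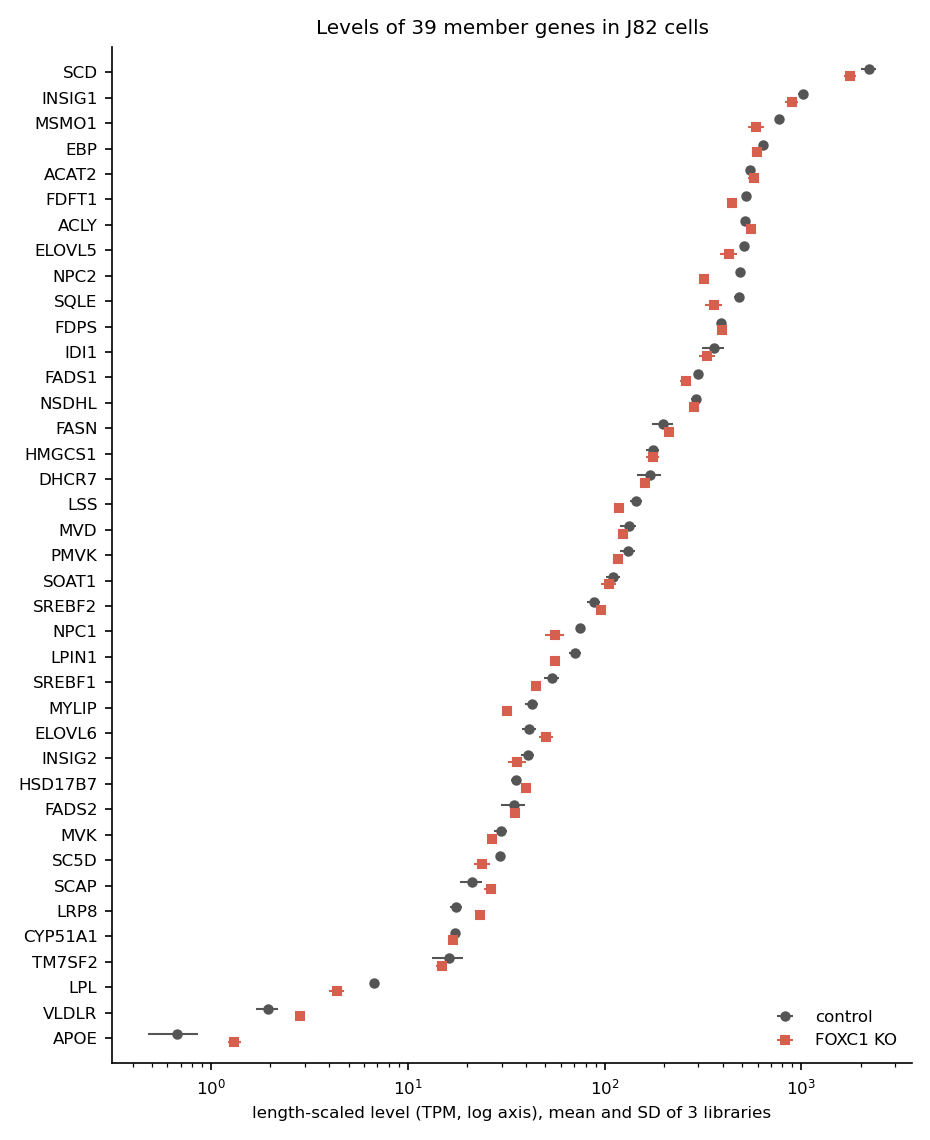
Length-scaled level (TPM, log axis) of 39 members in control (circles) and FOXC1 KO (squares) libraries, as mean and SD of 3 libraries, ordered by the control level. Exon lengths came from an annotation newer than that used for counting. Levels span from 2202 TPM for SCD to 0.670 TPM for APOE, and the shift between groups is small beside the span between genes.

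A list of 9 genes that respond to LXR was compared next, since 3 members (SREBF1, MYLIP and APOE) are on it. The list is not a full set of LXR targets and was chosen with earlier results of these data known. Of 9 listed targets, all tested, 5 fell and 2 rose, beside 8.39% and 7.57% of all tested genes. The other 2 (SREBF1 and SMPDL3A) were not called, and the median log2 fold change was -0.43. DESeq2 called 5 lower and 1 higher. For all 9, control and KO values were fully separated, as they were for 41.3% of all tested genes.

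ABCA1, the exporter that loads cholesterol onto apolipoprotein A-I, was at 198, 218 and 235 CPM in control and at 156, 138 and 146 CPM in KO, and fell by 0.57 on the log2 scale (adjusted p 7.44e-07, SE 0.074). ABCG1, which passes cholesterol to HDL, was at 3.88, 3.69 and 3.69 CPM in control and at 1.85, 2.02 and 1.91 CPM in KO, and fell by 0.95 (adjusted p 3.94e-05, SE 0.16). LPCAT3, which builds polyunsaturated phospholipids, was at 148, 124 and 132 CPM in control and at 84.3, 87.3 and 79.4 CPM in KO, and fell by 0.68 (adjusted p 3.97e-08, SE 0.076). Control and KO libraries were thus well separated for both exporters and for the acyltransferase. NR1H3, the gene of LXRα itself, was at 16.3, 15.8 and 14.7 CPM in control and at 9.83, 12.2 and 8.84 CPM in KO, and fell by 0.59 (adjusted p 0.000129, SE 0.11).

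APOC1, which lies beside APOE in the apolipoprotein cluster of chromosome 19, rose as APOE did. It was at 6.42, 7.29 and 5.50 CPM in control and at 9.45, 11.1 and 10.7 CPM in KO, a log2 fold change of 0.71 (adjusted p 3.14e-05, SE 0.12). Of the apolipoprotein genes of the list, APOC1 was therefore higher in KO. APOE, at 7 to 19 counts per library, was higher in edgeR but did not pass in DESeq2 (adjusted p 0.207). The exporters, the acyltransferase, NR1H3 and MYLIP were lower. NR1H2, the gene of LXRβ, had a log2 fold change of 0.22 (adjusted p 0.0742).

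**Figure D5:**
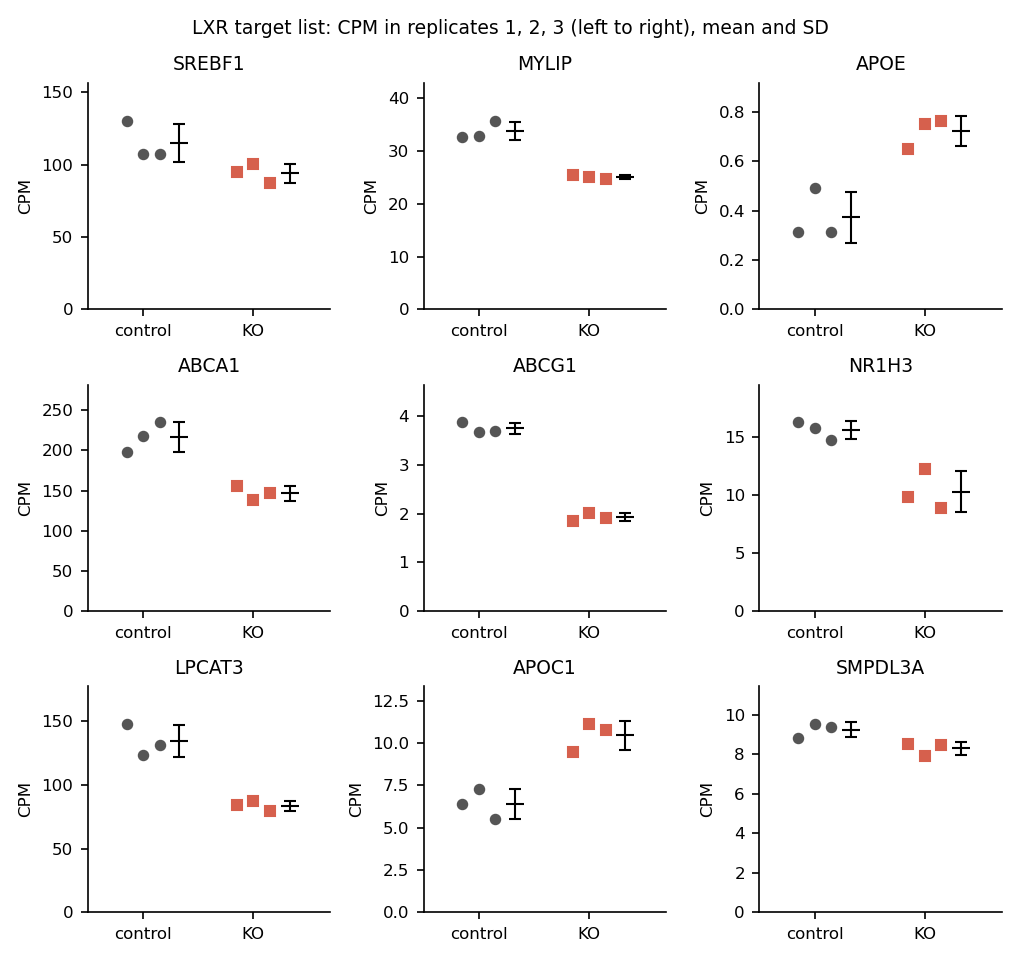
CPM of the 9 genes of the LXR target list in each control (circles) and FOXC1 KO (squares) library, with the mean and SD of 3 libraries, on axes that start at 0. The exporters ABCA1 and ABCG1, LPCAT3, NR1H3 and MYLIP are lower in all KO libraries, and APOE and APOC1 are higher, APOE from 7 to 19 counts per library.

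The other genes of these pathways were then counted from lists of 110 genes outside the members, of which 100 were tested. Of these 17 fell and 10 rose, beside 8.39% and 7.57% of all tested genes, with a median log2 fold change of 0.04. Among 15 tested genes of other sterol and isoprenoid steps, none fell and 1 rose in edgeR and in DESeq2, with 3 lower at an unadjusted p under 0.05 (19.4% of all tested genes). That gene was NCEH1, a hydrolase of cholesterol esters, at 116, 115 and 120.4 CPM in control and 168, 149.9 and 164 CPM in KO (log2 fold change 0.46, adjusted p 9.05e-06, SE 0.070). None of 15 other tested regulators, which included genes that process or degrade the SREBP machinery, NR1H2 and the lipogenic factor gene MLXIPL, was called by either tool. At an unadjusted p under 0.05 in edgeR, 3 were lower and 6 higher, beside 19.4% and 20.4% of all tested genes. By adjusted p alone 5 were higher, beside 15.2% of all tested genes. Among them was the SREBP protease MBTPS1, at a log2 fold change of 0.25 (adjusted p 0.00717).

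Of 17 other tested receptor genes, 3 fell and 2 rose, beside 8.39% and 7.57% of all tested genes. CD36, a fatty acid and oxidised lipoprotein receptor, was at 3.92, 4.05 and 3.73 CPM in control and 1.68, 1.74 and 1.61 CPM in KO, and fell by 1.21 on the log2 scale (adjusted p 1.58e-06, SE 0.17). LRP2 (-0.61) and SORL1 (-0.61) also fell, though the SORL1 call was lost in DESeq2 (adjusted p 0.139). LRP4 (1.03) and LRP1B (0.60) rose, all 4 from under 6 CPM in every library.

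Of 30 other tested fatty acid genes, 6 fell and 5 rose (beside 8.39% and 7.57% of all tested genes), so both directions were present. PLIN2, a coat protein of lipid droplets, was at 250.4, 236 and 245 CPM in control and 180.1, 178 and 180.2 CPM in KO, and fell by 0.44 on the log2 scale (adjusted p 7.47e-06, SE 0.067). Among the acyl-CoA synthetases, which activate fatty acids, ACSL1 (-0.43) and ACSL3 (-0.40) fell while ACSL4 (0.43) rose. The carrier FABP5 (-0.48), the carboxylase gene ACACB (-0.53) and the lipase gene LIPG (-0.69) fell, and the elongase ELOVL1 (0.43) rose.

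Fatty acid oxidation and its PPAR regulators were described by 17 tested genes, of which 4 fell and 1 rose, beside 8.39% and 7.57% of all tested genes. PPARG (-0.45, adjusted p 1.04e-05), the lipid-sensing receptor of adipogenesis, fell from 124 ± 2.996 to 90.6 ± 2.47 CPM (SD, n = 3), and its coactivator gene PPARGC1A (-0.63, adjusted p 1.41e-06) from 40.4 ± 1.06 to 26.2 ± 2.58 CPM. PDK4 (-0.89), a kinase that limits glucose oxidation, and ACADL (-0.58), an acyl-CoA dehydrogenase, fell as well, but the ACADL adjusted p was 0.119 in DESeq2. ANGPTL4, a secreted inhibitor of lipoprotein lipase, rose from 2.33 ± 0.355 to 6.15 ± 0.343 CPM, by 1.40 on the log2 scale (adjusted p 1.54e-08, SE 0.15), while LPL itself fell.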

How the data were processed

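The deposited table held raw counts of reads per gene in 6 libraries. The authors had aligned paired 75-base reads of KAPA mRNA HyperPrep libraries to hg19 (STAR) and counted them over GENCODE genes (featureCounts), without pooling replicates. Tool versions and the settings for strand and for reads matching several places are not given in the sources used here, so counts of overlapping and near-identical genes are uncertain. All 57820 rows named a gene. Groups came from the sample titles. Symbols and exon lengths came from a newer GENCODE annotation of GRCh37, the same assembly, which matched 55538 identifiers (96.1%).

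After filterByExpr and TMM normalization, groups were compared in edgeR 4.0.16 (R 4.3.3) by the quasi-likelihood F test with robust estimation and no covariate, and p-values were adjusted over all 15647 tested genes. The thresholds for a call, 0.05 and 1.3-fold, were those of the study, which used DESeq2 (version 1.42.0 was run as an alternative). Standard errors were derived from the F statistic, and 95% intervals from them by the normal approximation, which makes them slightly narrow. CPM used TMM-scaled library sizes. Exact permutation tests of 3 against 3 libraries cannot go below 0.1 and are not quoted per gene. The 6 libraries were distinct (chi-square per gene within groups 2.95 to 10.1), with correlations across genes of at least 0.996 within and at most 0.989 between groups. The procedure was tested on simulated data. Intervals cover the spread between libraries and counting error only.

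Members and lists were chosen with earlier results of these data known. Every member is named. Values per library are given for regulators and called members, and at most 8 called genes of each other list are named, by smallest p. NR1H2, MLXIPL, MBTPS1 and SMPDL3A were named after their values were seen. Alternatives were RLE size factors, library size alone, DESeq2, no filter, a mean of at least 50 counts, a replicate block, each library left out, and other fold thresholds.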

Additional observations from a re-analysis of the deposited data

How the results depend on the processing

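Of 467 values of single members recomputed under 12 settings, 436 kept direction and side of the threshold, 15 lost the call, 6 gained it and 10 changed sign. With 1 library left out, members called lower numbered 5 to 8, members called higher 1 to 2, other pathway genes called lower 15 to 18 and called higher 8 to 11, and the members' median ran from -0.1822 to -0.09514. The count of 1 higher member came without KO replicate 2, and also with no filter on low counts and with a mean of at least 50 counts. With no fold threshold 15 members were lower and 5 higher, and 24 other genes were higher. Over 2-fold, 0 members were lower and 0 higher by edgeR, with 1 and 2 other genes. With glmTreat, which tests against 1.3-fold, 1 member was lower and 0 higher, with 6 and 3 other genes. In these last 3 cases the stricter or looser threshold itself sets the change, and for the others the cause was not tested.

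The members that changed sign lay between -0.14 (TM7SF2) and zero and had not passed the test. With 1 library left out, HMGCS1 ran from -0.087 to 0.006594, FDPS from -0.02856 to 0.02542, TM7SF2 from -0.2526 to 0.01865, NSDHL from -0.08642 to 0.003067, DHCR7 from -0.2007 to 0.01618 and FADS2 from -0.08588 to 0.122.

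Same-numbered libraries did not deviate together (correlations -0.0402, -0.129 and 0.0734, and 0 of 6 libraries correlated best with its own number), so the numbers do not pair the libraries. With the replicate block, 6 members were called lower and 3 higher, as without it, and FADS2 was at 0.003624. Depth limits APOE and STARD4, which held at most 19 and 2 counts per library.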
